A study of Mus musculus with 10 samples.

Results

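The genes described here make and clear extracellular adenosine or sense it and its precursor ATP in regulatory T (Treg) cells: the ectonucleotidases Entpd1 (CD39) and Nt5e (CD73), the adenosine receptors Adora2a and Adora2b, the clearance genes Ada, Adk and Slc29a1 (ENT1), and the ATP-gated channels P2rx7 and P2rx4. They are 9 of the 55809 gene rows in the count tables and were chosen by name, with no measured value in the rule. Bulk RNA-seq was made from Treg cells of spleen and lymph nodes of Foxp3-AID mice, in which Foxp3 is fused to an auxin-inducible degron. Mice of both groups received 5-ph-IAA, a synthetic auxin analog, for 14 days. In the 6 R26-TIR1(F74G) libraries the ROSA26 allele encodes the mutated plant E3 ligase TIR1, which together with 5-ph-IAA sends the Foxp3 fusion protein for degradation, and in the 4 R26-WT libraries this ligase is absent. TIR1 stands behind a STOP cassette that is removed by the Cre of the Foxp3 allele, so it is made where Foxp3 is transcribed. The command line in the count tables names the animals as males, and neither their age nor the number of mice behind a library is in the labels. The sorting scheme in the study's methods used ZsGreen in both genotypes and mCherry in addition for R26-TIR1(F74G), so a difference in gate and the genotype cannot be told apart.

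CD39 removes phosphates from extracellular ATP and ADP to leave AMP, and CD73 converts AMP to adenosine, a route that Treg cells are known to use to restrain effector T cells. Adenosine is sensed by the A2AR and A2BR receptors, which raise cyclic AMP, and is cleared by transport into cells and by conversion to inosine or AMP. ATP that is not degraded opens P2X channels, and P2X7 is known for its strong effect on Treg cell survival and stability.

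The libraries held from 24158699 to 54795718 counted read pairs, with fewer in R26-TIR1(F74G) than in R26-WT (exact permutation test, two-sided p = 0.0476). All 7 markers of Treg and CD4 T cells were detected in every library, with Cd4 at 432 to 718 and Il2ra at 285 to 582 CPM (counts scaled to the library total). Foxp3 transcript, which the degron does not target, averaged 8930 ± 2366 normalized counts in the controls (n = 4, SD) against 9401 ± 3415 in R26-TIR1(F74G) (n = 6, SD). Its difference of 0.07 on the log2 scale (SE 0.25) was not called (DESeq2 adjusted p 0.999958), and the sign turned in 5 of 17 alternative fits. Other gene models share 31.5% of the Foxp3 exon bases. Summed myeloid markers did not exceed 3.45 CPM, whereas summed CD8 and NK cell markers reached 42.6 to 58.8 CPM in R26-WT and 32.6 to 53.2 CPM in R26-TIR1(F74G), with none of that list called. Of 10 activated Treg markers, 2 were called higher, and their summed level was 210 to 236 CPM in R26-WT and 215 to 432 CPM in R26-TIR1(F74G), highest in replicate 9. Of 9 resting T cell markers, 1 was called higher and none lower, with 8915 to 9369 CPM in R26-WT and 8731 to 9803 CPM in R26-TIR1(F74G). Of the 12 proliferation markers, 10 were called higher in R26-TIR1(F74G), and their summed level was 111 to 163 CPM in R26-WT and 226 to 367 CPM in R26-TIR1(F74G). The part of proliferating or activated cells in the values below was not tested. Across the 16363 tested genes, those averaging 10 counts or more, DESeq2 called 284 genes at an adjusted p under 0.05, 229 higher (1.4% of those tested) and 55 lower (0.336%) in R26-TIR1(F74G). In bulk RNA, fewer cells of a type and less RNA per cell cannot be told apart.

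None of the 9 genes was called as changed after 14 days of Foxp3 degradation, where 1.74% of all tested genes were called. Of the 9, 8 had enough counts to be tested, and Adora2b did not. The log2 fold changes of R26-TIR1(F74G) over R26-WT lay between -0.10 and 0.21, with 5 genes higher and 3 lower, and their median was 0.07 beside 0.00063 over all tested genes. DESeq2 gave 0 of 8 calls and 0 genes with an unadjusted p under 0.05, where 6.86% of all tested genes had one. The edgeR quasi-likelihood test (0.373% of tested genes called) and limma voom (0.489%) also gave 0 calls and 0 genes with an unadjusted p under 0.05, where 6.21% and 8.37% of all tested genes had one. The adjusted p was 0.999958 for each of the 8 genes with DESeq2, 0.999 with edgeR and no lower than 0.641 with voom. The groups overlapped for all 9 genes, whereas normalized counts (counts divided by the DESeq2 size factor of the library) did not overlap between the groups for 2.37% of tested genes. The 95% confidence intervals of the fold reached from 0.783 to 1.61 over the 8 genes, so for each of them the interval left out a change of 2-fold or more in either direction.

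**Figure D1:**
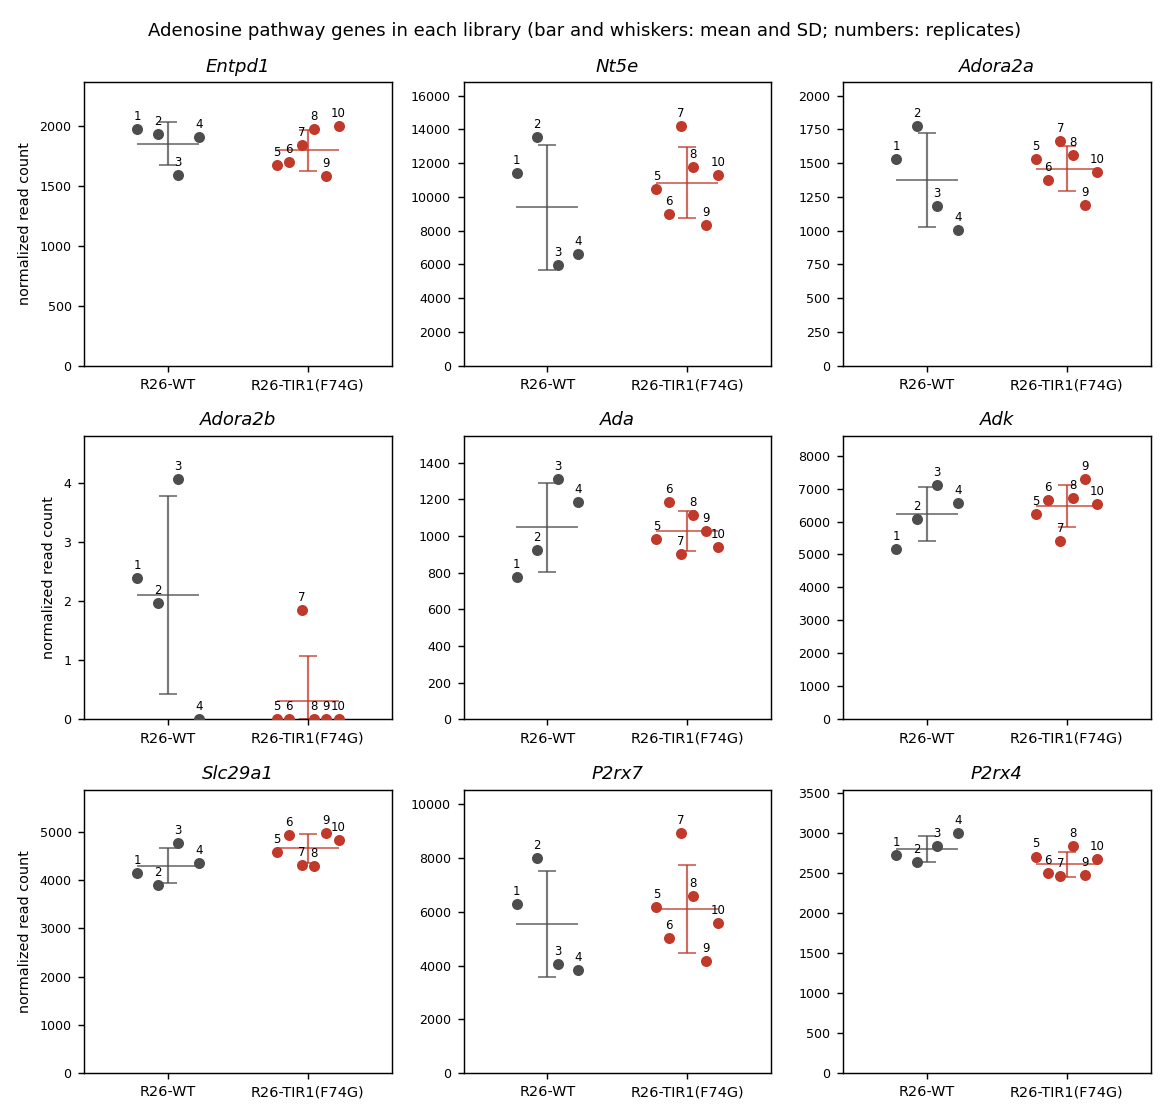
Normalized read count (y axis, from 0, a separate scale for each gene) of the 9 genes in each R26-WT and R26-TIR1(F74G) library (x axis). Points are libraries with their replicate numbers, and bars with whiskers are the mean and SD. The groups overlap in every panel, and Nt5e, P2rx7 and Adora2a are spread more widely among the R26-WT libraries than Entpd1, Slc29a1 and P2rx4.

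Entpd1 (chr19:40600810-40730046, plus strand, GRCm39) encodes CD39, the enzyme at the entry of the route. In R26-WT replicates 1 to 4 it had 1977, 1932, 1588 and 1911 normalized counts, and in R26-TIR1(F74G) the lowest, median and highest libraries had 1586, 1771 and 2004. Replicate 3 of R26-WT stood below the other 3 controls, and 1 of the 6 R26-TIR1(F74G) libraries was above all controls. The difference was -0.04 on the log2 scale (SE 0.11, 95% interval -0.27 to 0.18).

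Nt5e (chr9:88209250-88254145, plus strand) encodes CD73, which forms adenosine from AMP. It had 11390.3, 13548, 5966 and 6587 normalized counts in R26-WT replicates 1 to 4, and 8348, 10867 and 14222 in the lowest, median and highest R26-TIR1(F74G) libraries. The controls thus fell into a high pair (replicates 1 and 2) and a low pair (replicates 3 and 4), 2.27-fold apart at their extremes, with the low pair below every one of the 6 R26-TIR1(F74G) libraries. The fitted difference of 0.21 (SE 0.24, 95% interval -0.26 to 0.68) was smaller than the spread among controls, whose coefficient of variation (CV) was 39.4% beside 19.5% in R26-TIR1(F74G). Leaving out R26-WT replicate 2 gave 0.44 and leaving out replicate 4 or 3 a smaller value, down to 0.045 without replicate 3, with no call in any of these fits. With limma voom it was 0.37 (adjusted p 0.641).

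Per kilobase of exon, the scale on which genes can be set beside each other, Nt5e exceeded Entpd1 in all 10 libraries. The log2 ratio of Nt5e over Entpd1 was 1.63 ± 0.49 in R26-WT (n = 4, SD) and 1.95 ± 0.21 in R26-TIR1(F74G) (n = 6, SD), with ranges of 1.16 to 2.19 and 1.77 to 2.32 that overlap. In linear terms, a kilobase of Nt5e had 2.24 to 4.55 times the normalized count of a kilobase of Entpd1 in R26-WT and 3.42 to 5.01 times in R26-TIR1(F74G).

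Adora2a (chr10:75152711-75170618, plus strand) encodes A2AR, the main adenosine receptor of T cells. Its normalized counts in R26-WT replicates 1 to 4 were 1528, 1778, 1184 and 1006, against 1191, 1483 and 1667 in the lowest, median and highest R26-TIR1(F74G) libraries. The same 2 controls were high and the same 2 low as for Nt5e, and the R26-TIR1(F74G) libraries stood within the range of the controls. The difference was 0.09 (SE 0.17, 95% interval -0.25 to 0.43), and without R26-WT replicate 4 it turned to -0.034. With limma voom it was 0.21 (adjusted p 0.706).

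Adora2b (chr11:62139810-62157279, plus strand) encodes A2BR, which needs more adenosine than A2AR to respond. It had 3, 2, 5 and 0 counts in R26-WT replicates 1 to 4 and 2 counts in R26-TIR1(F74G) replicate 7, and none in the other 5 libraries of that group. Pooled, this was 0.0489 CPM in R26-WT (exact Poisson 95% interval 0.0234 to 0.0898) and 0.00827 CPM in R26-TIR1(F74G) (0.00100 to 0.0299). These intervals cover counting error only and leave out the spread between libraries, since counts were pooled. PCR copies of a molecule are counted as if separate, so the intervals may be too narrow. A count of 0 in the shallowest library allows up to 0.124 CPM (3 counts of its total). The pooled intervals overlapped, which does not show that the levels are equal. The gene was not tested between the groups, and no ratio to Adora2a is given.

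Ada (chr2:163568504-163592159, minus strand) encodes adenosine deaminase, which turns adenosine into inosine. R26-WT replicates 1 to 4 had 776, 921, 1309.5 and 1183 normalized counts, and the lowest, median and highest R26-TIR1(F74G) libraries had 899.9, 1006 and 1187. Here controls 3 and 4 were the high pair and controls 1 and 2 the low pair, the reverse of Nt5e and Adora2a, and every R26-TIR1(F74G) library lay between the control extremes. The difference was -0.03 (SE 0.16, 95% interval -0.35 to 0.29), a value whose sign turned in 4 of 17 alternative fits.

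Adk (chr14:21102642-21498637, plus strand) encodes adenosine kinase, which returns adenosine to AMP inside the cell. Normalized counts were 5177, 6086, 7104 and 6569.7 in R26-WT replicates 1 to 4, and the lowest, median and highest of R26-TIR1(F74G) were 5408, 6599 and 7286. The order of the controls followed that of Ada in that replicates 3 and 4 were highest. The difference was 0.05 (SE 0.12, 95% interval -0.19 to 0.30) and changed sign in 2 of 17 alternative fits. The log2 ratio of Ada over Adk per kilobase was -0.50 ± 0.16 in R26-WT (n = 4, SD) and -0.57 ± 0.13 in R26-TIR1(F74G) (n = 6, SD), with overlapping ranges. With the length and GC trend removed these means were -0.56 and -0.53, so the sign of their difference turned.

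Slc29a1 (chr17:45896126-45910532, minus strand) encodes ENT1, a transporter that lets adenosine move across the membrane along its gradient. On the scale of normalized counts it was among the steadiest of the set, with 4160.4, 3911, 4770.0 and 4364 normalized counts in R26-WT replicates 1 to 4 and 4299.9, 4721 and 4988 in the lowest, median and highest R26-TIR1(F74G) libraries. Of the 6 R26-TIR1(F74G) libraries, 3 were above the highest control and 5 above the control mean. The difference was 0.12 (SE 0.10, 95% interval -0.07 to 0.31) and was not called (DESeq2 adjusted p 0.999958). It was called only when 1 surrogate variable, a hidden factor estimated from all genes, was added to the DESeq2 fit (0.15, SE 0.05, adjusted p 0.0486, where 4.54% of all tested genes were called). With the length and GC trend removed the difference was 0.050 (SE 0.13, DESeq2 adjusted p 0.993). Its adjusted p over all alternatives ranged from 0.0486 to 0.999998. An opposite-strand gene model, Gm17080, shares 6.86% of the Slc29a1 exon bases, and read pairs there were left uncounted.

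**Figure D2:**
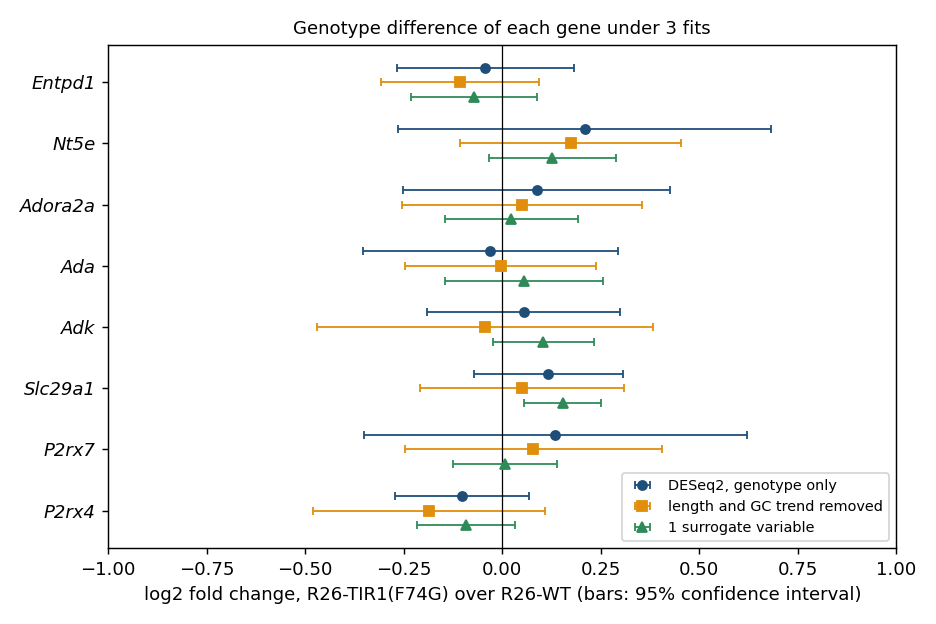
Log2 fold change of R26-TIR1(F74G) over R26-WT (x axis) for the 8 tested genes (y axis) in DESeq2 fits with genotype only, after removal of a per-library trend on exon length and GC, and with 1 surrogate variable. Points are estimates and bars 95% confidence intervals, and of the 24 intervals only that of Slc29a1 with the surrogate variable leaves out 0.

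P2rx7 (chr5:122781974-122829495, plus strand) encodes P2X7, a channel that opens at high extracellular ATP and, in mouse T cells, also after ADP-ribosylation of its outer surface. Its normalized counts were 6285, 7991, 4059 and 3848 in R26-WT replicates 1 to 4, and 4180.1, 5885 and 8947 in the lowest, median and highest R26-TIR1(F74G) libraries. The split of the controls was that of Nt5e and Adora2a, and R26-TIR1(F74G) replicate 7 was the highest library of all. The difference was 0.13 (SE 0.25, 95% interval -0.35 to 0.62), and it was -0.0083 without R26-TIR1(F74G) replicate 7 and -0.0035 without R26-WT replicate 4. With limma voom it was 0.26 (adjusted p 0.716). The annotated microRNA Mir8115 takes 1.99% of the P2rx7 exon bases.

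P2rx4 (chr5:122845607-122867801, plus strand) encodes P2X4, an ATP-gated channel that opens at lower ATP, and starts 16111 bases beyond the end of P2rx7 on the same strand. In R26-WT replicates 1 to 4 it had 2723, 2632, 2836 and 3004 normalized counts, and in the lowest, median and highest R26-TIR1(F74G) libraries 2466, 2586 and 2839. On this scale it varied least of the 8 genes, with a CV of 5.72% in R26-WT and 5.90% in R26-TIR1(F74G), and its controls 3 and 4 were slightly above controls 1 and 2, the reverse of its neighbour. The difference was -0.10 (SE 0.09, 95% interval -0.27 to 0.07), and 1 of the 6 R26-TIR1(F74G) libraries was above the control mean. The log2 ratio of P2rx7 over P2rx4 per kilobase was 1.16 ± 0.58 in R26-WT (n = 4, SD) and 1.42 ± 0.37 in R26-TIR1(F74G) (n = 6, SD), again with overlapping ranges.

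Levels per kilobase of exon placed Nt5e, Slc29a1 and P2rx7 at the top of the set, with R26-WT means of 1090 ± 429, 1073 ± 90.6 and 929 ± 330 normalized counts per kilobase (n = 4, SD). Nt5e exceeded Slc29a1 in 6 of 10 libraries and Slc29a1 exceeded P2rx7 in 6 of 10, so the order of these 3 did not hold beyond their spread. Next came Adk at 731 ± 96.0 and Ada at 523 ± 121, and Adk was above Ada in all 10 libraries. Ada was above Adora2a (449 ± 113) in 6 of 10 libraries, Adora2a above P2rx4 (398 ± 22.8) in 8 of 10, and P2rx4 above Entpd1 (332 ± 32.0) in all 10. Adora2b, at 1.14 ± 0.906, was far below the rest. Among all tested genes, the level per kilobase put Nt5e at percentile 84.9 and Entpd1 at percentile 61.0.

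The 8 genes differed in how much they varied within a group. Ranked among all tested genes by the SD of variance-stabilized values around the group means, P2rx7 stood at percentile 91.4 and Nt5e at 90.9, whereas P2rx4 stood at 2.81 and Slc29a1 at 6.81. Adora2a, Ada, Adk and Entpd1 stood at percentiles 60.3, 51.3, 24.7 and 14.8. After the removal of a trend on exon length and GC described below, the CV in R26-WT was 22.6% for Nt5e, 23.1% for P2rx7, 19.8% for P2rx4 and 14.9% for Slc29a1, which kept the order of the pairs. In R26-TIR1(F74G) it was 8.08%, 16.1%, 12.4% and 12.8%, which put Nt5e below P2rx4 and Slc29a1.

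Nt5e, P2rx7 and Adora2a rose and fell together from library to library. Over the 10 libraries, 28 pairs of genes and 8 relations to the length slope described below made a family of 36 correlations, and 5 of the 28 pairs had a Benjamini-Hochberg adjusted permutation p under 0.05. The share of all gene pairs with such correlations was not tested. With group means removed, genes outside the set reached an r of 0.998 with P2rx7 (Naa40) and with Nt5e (Scaf11). Pearson's r on variance-stabilized values was 0.95 for Nt5e and P2rx7 (100000 permutations, p = 4e-05, adjusted 0.00036), with Spearman's rho 0.98 (p = 6e-05, adjusted 0.00108). For Adora2a and P2rx7, r was 0.95 (permutation p = 3e-05, adjusted 0.00036) and rho 0.98 (p = 3e-05, adjusted 0.00108). For Nt5e and Adora2a, r was 0.92 (permutation p = 0.00019, adjusted 0.00137) and rho 0.94 (p = 0.00021, adjusted 0.00189). These 3 relations did not rest on a few libraries: without the 2 libraries farthest from the median r was 0.96, 0.95 and 0.92, within the 6 R26-TIR1(F74G) libraries it was 0.96, 0.95 and 0.90, and with group means removed it was 0.95, 0.95 and 0.92.

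The 2 enzymes that remove adenosine, Ada and Adk, varied together, and of their 6 correlations with Nt5e, P2rx7 and Adora2a only that of Ada with Nt5e passed the adjusted threshold. Ada and Adk had an r of 0.80 with each other (permutation p = 0.00469, adjusted 0.0241; rho 0.83, p = 0.00496, adjusted 0.0223), and Ada and Nt5e an r of -0.77 (permutation p = 0.0102, adjusted 0.041; rho -0.77, p = 0.0123, adjusted 0.0441). The other 5 had r between -0.60 and -0.71, with adjusted permutation p from 0.0699 to 0.126 for r and from 0.0633 to 0.133 for rho. Both relations that passed weakened without the 2 libraries farthest from the median, to 0.59 and -0.51. Slc29a1 had an r of -0.52 with Nt5e, -0.53 with Adora2a and -0.63 with P2rx7 (adjusted p 0.191, 0.191 and 0.106 by permutation). With group means removed these were -0.87, -0.77 and -0.88. The neighbours P2rx7 and P2rx4 had an r of -0.37 (permutation p = 0.287, adjusted 0.326; rho -0.37, p = 0.296, adjusted 0.345), and 0.23 without the 2 farthest libraries.

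A property of the whole library went with these levels. The points of each correlation share their libraries, and libraries differed in whether long genes read higher or lower than short genes: the slope of log2 normalized count on log2 exon length, taken over genes other than the 9 with GC content as a second term, ranged from -0.10 in R26-WT replicate 3 to 0.13 in R26-TIR1(F74G) replicate 7. P2rx7 had an r of 0.98 with this slope (permutation p = 1e-05, the smallest the permutations can give, adjusted 0.00018; rho 0.95, p = 0.00016, adjusted 0.00189), and 0.98 within the 6 R26-TIR1(F74G) libraries. Nt5e (r 0.95, adjusted p 0.00018 by permutation; rho 0.94) and Adora2a (r 0.90, adjusted p 0.00258 by permutation; rho 0.93) followed it as well, and Adk (r -0.78, adjusted p 0.0334 by permutation; rho -0.82) and Ada (r -0.76, adjusted p 0.0411 by permutation; rho -0.85) ran against it. Without the 2 libraries farthest from the median slope, r was 0.98 for P2rx7, 0.94 for Nt5e, 0.94 for Adora2a, -0.62 for Adk and -0.67 for Ada. Slc29a1 had an r of -0.64 with the slope (adjusted p 0.0996 by permutation), with -0.84 within R26-TIR1(F74G) and -0.93 within R26-WT. How many of all tested genes follow the slope as closely was not tested.

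**Figure D3:**
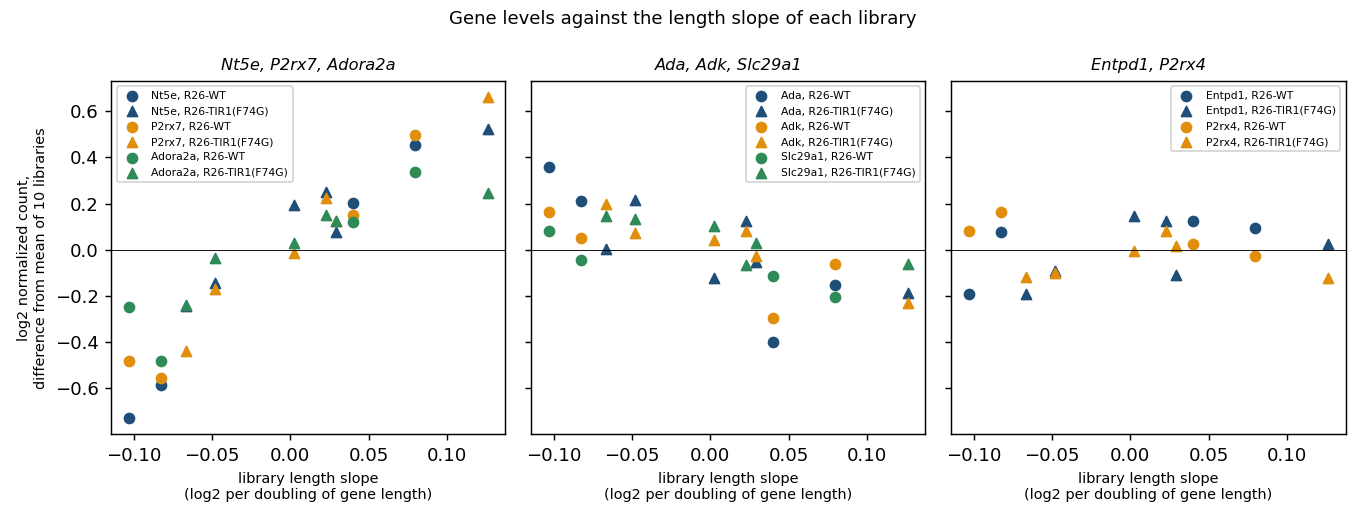
Log2 normalized count of each gene relative to its mean over the 10 libraries (y axis) against the length slope of the library (x axis, log2 units per doubling of exon length), with R26-WT as circles and R26-TIR1(F74G) as triangles. Nt5e, P2rx7 and Adora2a climb with the slope (r 0.95, 0.98 and 0.90), and Ada and Adk descend. Slc29a1 had an r of -0.64, which did not pass the adjusted threshold. The lowest 2 slopes are circles and the highest is a triangle.

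Nt5e has 8602 exon bases, P2rx7 5970, Adora2a 3062, Adk 8526 with a GC content of 38.8%, and Ada 2002. The part of exon length in the shared variation was not tested. After a smooth trend on exon length and GC was taken out of every library, the CV of Nt5e fell from 39.4% to 22.6% in R26-WT and from 19.5% to 8.08% in R26-TIR1(F74G), while that of Adk went from 13.1% to 30.9% in R26-WT that of P2rx4 from 5.72% to 19.8% and that of Slc29a1 from 8.45% to 14.9%. On these values the r with the length slope was 0.96 for P2rx7, 0.86 for Adora2a, 0.79 for Nt5e, -0.56 for Ada and -0.97 for Adk. It went from -0.37 to -0.92 for P2rx4, from -0.64 to -0.90 for Slc29a1 and from 0.51 to -0.53 for Entpd1. The r between Nt5e and P2rx7 was 0.81 on these values, and that between Adora2a and P2rx7 was 0.93. Other relations changed more: that of P2rx7 and P2rx4 went from -0.37 to -0.88, that of Ada and Nt5e from -0.77 to -0.51, and that of Entpd1 and Nt5e from 0.56 to -0.31. In the fit on this scale 0 of the 8 genes were called, where 2.14% of all tested genes were. The summed level of 5 B cell markers (Ms4a1, Cd79a, Cd79b, Pax5 and Ebf1), from 16.1 to 31.5 CPM over the libraries, was lowest in R26-TIR1(F74G) replicate 7 and R26-WT replicate 2, the 2 libraries with the most P2rx7, and highest in R26-WT replicates 3 and 4, the 2 with the least. Of these, Pax5 had at most 3 and Ms4a1 at most 4 counts in any library, and Ms4a1, Pax5 and Ebf1 were at 0 in at least 1 library, whereas Cd79a and Cd79b were detected in all 10. The part of such transcripts in the pattern was not tested.

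The bases ahead of the RefSeq transcription start are shown for P2rx7 and Nt5e, which moved together, and for P2rx4, the neighbour of P2rx7. RefSeq windows were found for 8 of the 9 genes, 18 windows in all, and none for Adora2a. The Nt5e window lies inside the gene model used for counting, which starts at chr9:88209250. The P2rx7 window ends past the start of its gene model at chr5:122781974. The sequences are from the RefSeq table for GRCm38.p6 and matched GRCm39 exactly and once, so GRCm39 positions are given. Each runs 5′ to 3′ on the plus strand for 250 bases, and capitals mark matches to the 4 motifs named after the sequences.
P2rx7 (chr5:122781740-122781989): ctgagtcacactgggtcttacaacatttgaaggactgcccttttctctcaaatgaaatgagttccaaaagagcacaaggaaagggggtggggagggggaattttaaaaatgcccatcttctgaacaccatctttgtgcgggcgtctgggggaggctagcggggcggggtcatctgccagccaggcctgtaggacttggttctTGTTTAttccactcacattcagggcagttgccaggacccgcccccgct
Nt5e (chr9:88209412-88209661): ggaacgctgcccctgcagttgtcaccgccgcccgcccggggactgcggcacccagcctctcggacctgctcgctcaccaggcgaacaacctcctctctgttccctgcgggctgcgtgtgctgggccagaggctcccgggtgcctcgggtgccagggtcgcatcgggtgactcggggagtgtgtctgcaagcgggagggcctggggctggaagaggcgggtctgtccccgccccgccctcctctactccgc
P2rx4 (chr5:122845357-122845606): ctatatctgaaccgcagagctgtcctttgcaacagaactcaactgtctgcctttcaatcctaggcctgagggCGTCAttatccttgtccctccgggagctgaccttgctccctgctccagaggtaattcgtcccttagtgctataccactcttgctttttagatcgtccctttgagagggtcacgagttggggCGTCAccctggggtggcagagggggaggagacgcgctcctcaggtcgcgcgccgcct

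The letters searched on both strands were the forkhead core TGTTTA, found in 12.0% of all 32851 RefSeq windows of this length, the RUNX core TGTGGT (14.0%), the ETS core AGGAAGT (7.69%) and the cyclic AMP response element half-site TGACG (17.8%). The P2rx7 window shown held a forkhead core on its forward strand, and the other RefSeq window of P2rx7 (chr5:122788196-122788445) held none of the 4 motifs. The Nt5e window held none of the 4, and the P2rx4 window held the cyclic AMP half-site at 2 places on the reverse strand (CGTCA). GC content was 53.6% for P2rx7, 72.0% for Nt5e and 57.2% for P2rx4, beside a median of 52.4% over all windows, and these 3 windows held 6, 21 and 13 CpG dinucleotides. A match of letters is a description and no evidence of binding, and these windows gave no motif that P2rx7 and Nt5e shared.

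Genes with the most similar variation were drawn from 11320 genes averaging 100 normalized counts or more, by Pearson's r over the 10 libraries with group means removed. For P2rx7 these were Naa40 (r 0.998) and Mlst8 (0.992), for Nt5e Scaf11 (0.998) and Dgcr8 (0.993), and for Adora2a Tsr1 (0.984) and Slc25a15 (0.982). For Ada they were Slc22a2 (0.986) and Cox10 (0.961), and for Adk Nemf (0.961) and Cdk11b (0.959). Slc29a1 was most like Smarce1-ps1 (0.985) and Zfp444 (0.982), P2rx4 most like Fah (0.943) and Pigs (0.938), and Entpd1 most like Fam219a (0.973) and Zfp7 (0.952). No gene appeared for more than 1 of the 8, and r values this high among so many genes and 10 libraries are a description without a test.

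The wider purine pathway was described with 5 lists that hold 67 genes, the 9 above included, of which 50 were tested. DESeq2, edgeR and limma voom called 0 of the 50, where they called 1.74%, 0.373% and 0.489% of all tested genes. Of the 50, 4 had an unadjusted DESeq2 p under 0.05 (8.00%, beside 6.86% of all tested genes). The fitted difference was positive for 26 of the 50 and negative for 24, with a median log2 fold change of 0.04. Medians were 0.10 over 11 genes listed as ectonucleotide enzymes, with Entpd5, Entpd6 and Entpd7 among them. They were 0.06 over 11 genes of adenosine receptors and their coupling, and 0.08 over 4 nucleoside transporters. Over 17 genes listed under intracellular adenosine and AMP metabolism the median was -0.03, and over 7 P2 receptors and ATP release genes -0.08. The intracellular list also held Dpp4, which encodes a surface peptidase. The other adenosine receptors were not tested: Adora1 had no count in any library and Adora3 at most 6.

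Enpp1, an ectoenzyme that splits ATP to AMP and pyrophosphate, had the smallest p of the 50. It had 1336, 1261, 1253 and 1068 normalized counts in R26-WT replicates 1 to 4, and 1362, 1603 and 2010.0 in the lowest, median and highest R26-TIR1(F74G) libraries. All 6 R26-TIR1(F74G) libraries were above all controls, the only gene of the 50 whose groups did not overlap, where 2.37% of all tested genes did not. The difference of 0.43 (SE 0.13, 95% interval 0.17 to 0.69) did not pass the threshold with DESeq2 (adjusted p 0.0639), edgeR (0.245) or voom (0.243). It passed without R26-TIR1(F74G) replicate 10 (0.48, DESeq2 adjusted p 0.0194) and with 1 surrogate variable (0.39, DESeq2 adjusted p 0.00143).

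Dpp4 encodes CD26, a surface peptidase. Its normalized counts in R26-WT replicates 1 to 4 were 9235, 10068, 6166 and 6685, and 9370.3, 10869 and 12843 in the lowest, median and highest R26-TIR1(F74G) libraries. Its controls showed the split of Nt5e, and 4 of the 6 R26-TIR1(F74G) libraries were above the highest control. The difference was 0.43 (SE 0.16), with an adjusted p of 0.262 by DESeq2, 0.407 by edgeR and 0.112 by voom. It was called with the length and GC trend removed (0.38, DESeq2 adjusted p 0.000281), with 1 surrogate variable (0.37, DESeq2 adjusted p 2.1e-07) and without R26-WT replicate 2 (0.55, DESeq2 adjusted p 0.0316).

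Ampd1, an AMP deaminase, had 502, 494, 693 and 678 normalized counts in R26-WT replicates 1 to 4 and 346, 378 and 593 in the lowest, median and highest R26-TIR1(F74G) libraries, of which 4 lay below all controls. Its difference of -0.46 (SE 0.20) had a DESeq2 adjusted p of 0.443. P2ry1, a receptor for ADP, was near the lower limit of counting with 4 to 29 counts per library, and its difference of 1.24 (SE 0.61) had a DESeq2 adjusted p of 0.67. Other genes share 23.1% of the P2ry1 exon bases.

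**Figure D4:**
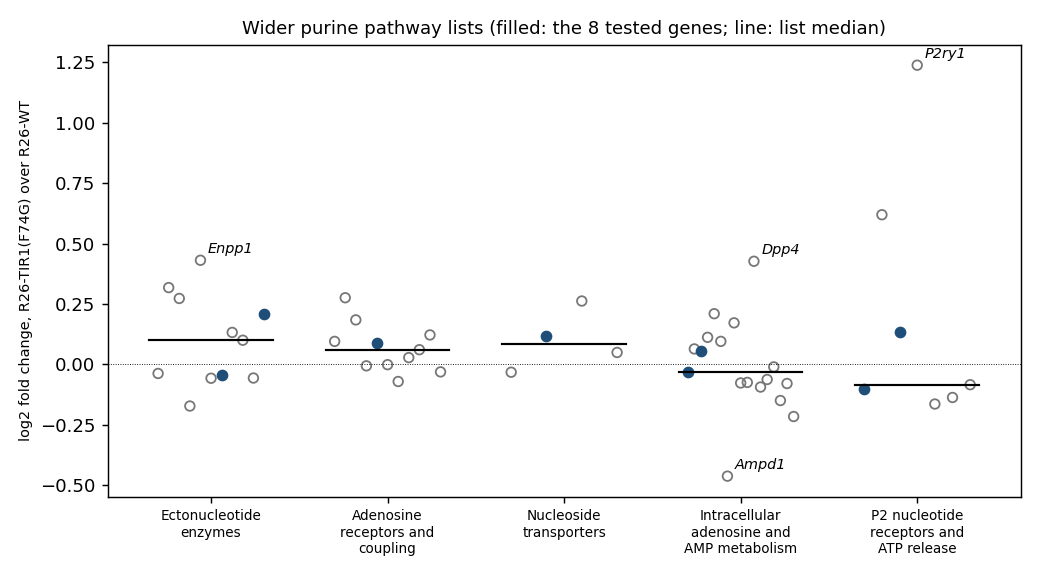
Log2 fold change of R26-TIR1(F74G) over R26-WT (y axis) for the 50 tested genes of the 5 purine pathway lists (x axis). Each circle is a gene, filled for the 8 tested genes of the set, lines are list medians from -0.08 to 0.10, and named circles are the 4 genes with an unadjusted p under 0.05.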

How the data were processed

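Poly(A) RNA-seq was made from Treg cells in 4 R26-WT and 6 R26-TIR1(F74G) libraries, with cDNA amplified from small inputs and no molecular identifiers named. Each deposited file held raw counts of read pairs for every gene, to which no scaling had been applied. The file headers show that featureCounts 2.1.1 was run by the authors on GENCODE M30 and GRCm39, at a mapping quality of 30 or more and with no strand option. The study's methods name STAR as the aligner, and the submitters' processing notes name Bowtie2. All 37 mitochondrial rows held 0 counts. Groups came from the sample labels, which do not say whether libraries come from separate mice, so p-values measure the spread between these libraries, which may be technical. Same-group pairs differed far beyond counting noise (chi-square per degree of freedom from 10.3 to 239 in 21 pairs).

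The 16363 genes averaging 10 counts or more were tested in R 4.3.3 with DESeq2 1.42.0 (genotype model, Wald test on both sides, p adjusted by Benjamini-Hochberg over the tested genes, threshold 0.05). DESeq2 gave no adjusted p for 6 genes. Alternatives were edgeR 4.0.16 (quasi-likelihood), limma 3.58.1 (voom with quality weights), TMM factors, other count filters, leaving out each library, an offset for gene length and GC content (splines with 5 degrees of freedom) and 1 surrogate variable (sva 3.50.0). The fits were tested on simulated data in which genes varied independently, with no trend shared across a library. The genes named were the 9 of the set, Foxp3, pathway genes called or with an unadjusted p under 0.05, and for each of the set the 2 genes most like it. Genes, lists and tests were chosen with earlier results of these data known. Normalized counts per kilobase use exon length in the count tables. Gm17080, Mir8115, Art2b and genes named as markers or for overlap were named after their values were seen. A B cell marker of the list is not reported here.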

Additional observations from a re-analysis of the deposited data

Results flagged for a closer look

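Among 20 sets of values examined (total counts, the 8 tested genes and Foxp3, in each group), 2 held a library far from the others, where chance gives about 1 in 20. Entpd1 in R26-WT replicate 3 had 1588 normalized counts, below 1911 to 1977 in the other 3 controls, and this gap was 0.831 of the range of the group. Foxp3 transcript in R26-TIR1(F74G) replicate 7 had 16059 normalized counts, above 6778 to 9851 in the other 5 libraries, a gap of 0.669 of the range. The same library had the most Nt5e and P2rx7 and the highest length slope.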

How the results depend on the processing

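No paired analysis was possible because replicates 1 to 4 are all R26-WT and 5 to 10 all R26-TIR1(F74G). Genes called numbered 284 in the DESeq2 fit, 61 with edgeR, 80 with limma voom, 350 with the length and GC trend removed, 743 with 1 surrogate variable, and 187 (without R26-WT replicate 4) to 346 with a library left out. None of the 8 tested genes was called in any alternative except Slc29a1 with 1 surrogate variable (0.15, adjusted p 0.0486), the 1 call among the 8 in that fit. Entpd1, Nt5e, Slc29a1 and P2rx4 kept their sign in all 17 alternatives, with a library left out over -0.11 to -0.0066, 0.045 to 0.44, 0.075 to 0.17 and -0.13 to -0.065. Removal of the length and GC trend gave -0.11, 0.17, 0.050 and -0.19 for these genes. With limma voom, Nt5e was 0.37, Adora2a 0.21 and P2rx7 0.26. The fit with 1 surrogate variable gave 0.13, 0.023 and 0.0074 for these 3 genes. Signs turned for Ada (0.055 with 1 surrogate variable), Adk (-0.044 with the length and GC trend removed) and Foxp3 (-0.0060 with the trend removed, -0.096 with 1 surrogate variable). With a library left out, log2 fold changes ranged from -0.15 to 0.096 for Ada, -0.025 to 0.12 for Adk, -0.034 to 0.24 for Adora2a, -0.0083 to 0.36 for P2rx7 and -0.15 to 0.24 for Foxp3. Turns came without R26-WT replicate 3 (Ada 0.096, Foxp3 -0.034), R26-WT replicate 4 (Ada 0.035, Adora2a -0.034, P2rx7 -0.0035, Foxp3 -0.016), R26-TIR1(F74G) replicate 7 (Ada 0.0046, P2rx7 -0.0083, Foxp3 -0.15) and R26-WT replicate 1 (Adk -0.025). The group difference in the log2 ratio of Ada over Adk went from -0.065 to 0.033 with the trend removed. Pathway genes called numbered 1 with the trend removed (Dpp4), 3 with 1 surrogate variable (Dpp4, Enpp1, Slc29a1), and 0 to 1 with a library left out: Art2b without R26-WT replicate 1 (0.62, adjusted p 0.018), Dpp4 without R26-WT replicate 2, and Enpp1 without R26-TIR1(F74G) replicate 10. The causes were not tested. Depth limits Adora2b, with 12 counts in all, and P2ry1. Each of the 8 tested genes had at least 631 counts in every library, and the shares of counting error and library spread in the intervals were not tested.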
